A study of Mus musculus with 39 samples.

Results

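The 5 genes described here make, interconvert, use or carry ketone bodies: Acat1, Bdh1, Bdh2, Oxct1 and Slc16a1. They were taken by name from the 56980 genes counted in 39 scrapings of proximal small intestine mucosa from female C57BL/6JRccHsd mice, and each is held by a single Ensembl identifier. The mice were weaned on day 21 and fed 1 of 3 diets of equal energy for 3 weeks, with 13 mice per diet, and were killed, fed, at 42 days of age. In percent of energy (en%), 32 came from glucose in the glucose group, 16 from galactose plus 16 from glucose in the galactose group, and 32 from lactose in the lactose group. The rest of the food was shared: protein and fat gave 20 en% each, starch 32 en% and fructose 3 en%. The first 2 cm of duodenum had been removed, and scraping collects mainly enterocytes, the absorptive cells, together with other mucosal cells. Each scraping carries its own number and was taken as 1 mouse, since the labels do not say so in words, and p-values measure the spread between these scrapings.

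Ketone bodies, acetoacetate and 3-hydroxybutyrate, are made in mitochondria from acetyl-CoA when fat breakdown is high, mostly in the liver. In suckling rodents, whose milk diet is rich in fat, the small intestine also makes them, and this activity declines around weaning. Acat1 is the mitochondrial acetoacetyl-CoA thiolase, which works in the first step of ketone synthesis, the last step of ketone use and the breakdown of isoleucine. The sterol acyltransferase that is also called ACAT1 is the product of another gene. Bdh1 interconverts acetoacetate and 3-hydroxybutyrate in mitochondria, and Bdh2 is a cytosolic enzyme of the same dehydrogenase superfamily. Oxct1 moves coenzyme A from succinyl-CoA to acetoacetate, the committed step of ketone use, and Slc16a1 encodes MCT1, a proton-coupled carrier of lactate, pyruvate, butyrate and ketone bodies.

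The promoter windows of 3 members that were lower with lactose than with glucose are given because those members moved in the same direction. They are the 250 bases before the annotated start, from RefSeq on GRCm38.p6. RefSeq windows were matched for 4 of the 5 members, and the libraries had been aligned to GRCm39, so the coordinates belong to GRCm38.p6 only. All 3 windows are on the plus strand: Slc16a1 at chr3:104638414-104638663, the first of 2 annotated starts of Bdh1 at chr16:31422047-31422296, and Bdh2 at chr3:135280971-135281220. Capitals mark the palindrome CACGTG.
Slc16a1: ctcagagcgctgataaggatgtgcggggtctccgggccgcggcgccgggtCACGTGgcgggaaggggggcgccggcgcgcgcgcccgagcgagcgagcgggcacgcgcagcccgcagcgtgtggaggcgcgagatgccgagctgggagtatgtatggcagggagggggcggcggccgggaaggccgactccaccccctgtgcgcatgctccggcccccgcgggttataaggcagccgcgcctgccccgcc
Bdh1: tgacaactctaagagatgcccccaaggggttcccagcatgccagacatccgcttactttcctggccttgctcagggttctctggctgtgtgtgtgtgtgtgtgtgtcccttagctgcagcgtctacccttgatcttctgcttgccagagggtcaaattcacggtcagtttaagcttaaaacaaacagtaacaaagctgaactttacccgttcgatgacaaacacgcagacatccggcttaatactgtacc
Bdh2: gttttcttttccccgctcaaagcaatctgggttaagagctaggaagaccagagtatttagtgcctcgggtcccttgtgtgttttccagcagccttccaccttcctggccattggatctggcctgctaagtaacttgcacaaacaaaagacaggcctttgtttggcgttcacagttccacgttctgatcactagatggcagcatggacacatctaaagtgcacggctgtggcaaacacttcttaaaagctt
The Slc16a1 window was rich in G and C, at 76.4%, with 37 CpG, against a median of 52.4% over 32851 RefSeq windows of this length. The Bdh1 window had 49.6% and 7 CpG, and the Bdh2 window 48.0% and 5 CpG. Both strands were searched for AGGTCA (in 14.0% of all windows), its direct repeat with a gap of 1 base (0.0335%), CACGTG (6.02%) and TATAAA (12.4%). AGGTCA lies within the direct repeat. The 5 windows of these 4 members, which include Oxct1 and the other start of Bdh1, held 1 match, the CACGTG that begins 200 bases before the Slc16a1 start.

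All 5 genes were expressed above the filter on low counts, so 5 of 5 were tested among 14658 genes. Levels are given as CPM, counts relative to a library size scaled by trimmed means, and for comparisons between genes as CPM per kilobase of exon. Under glucose, Acat1 had the highest level per length, 66.4 CPM per kb, followed by Bdh1 with 35.6, Slc16a1 with 24.2, Oxct1 with 15.8 and Bdh2 with 0.768. The order of these means was the same under galactose, with 63.3, 37.9, 26.4, 22.3 and 0.511 CPM per kb, and under lactose, with 44.6, 31.6, 17.8, 15.0 and 0.395. Bdh2 rested on 14 to 116 counts per library, whereas the least counted library of any other member, one of Oxct1, had 427 counts. Across the 3 diets, edgeR's quasi-likelihood test found a diet difference for Acat1 (adjusted p = 3.04e-07), Slc16a1 (2.19e-05), Bdh2 (0.000694) and Bdh1 (0.000818), and Oxct1 did not pass (0.0892). Of all tested genes, 30.3% passed this test.

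**Figure D1:**
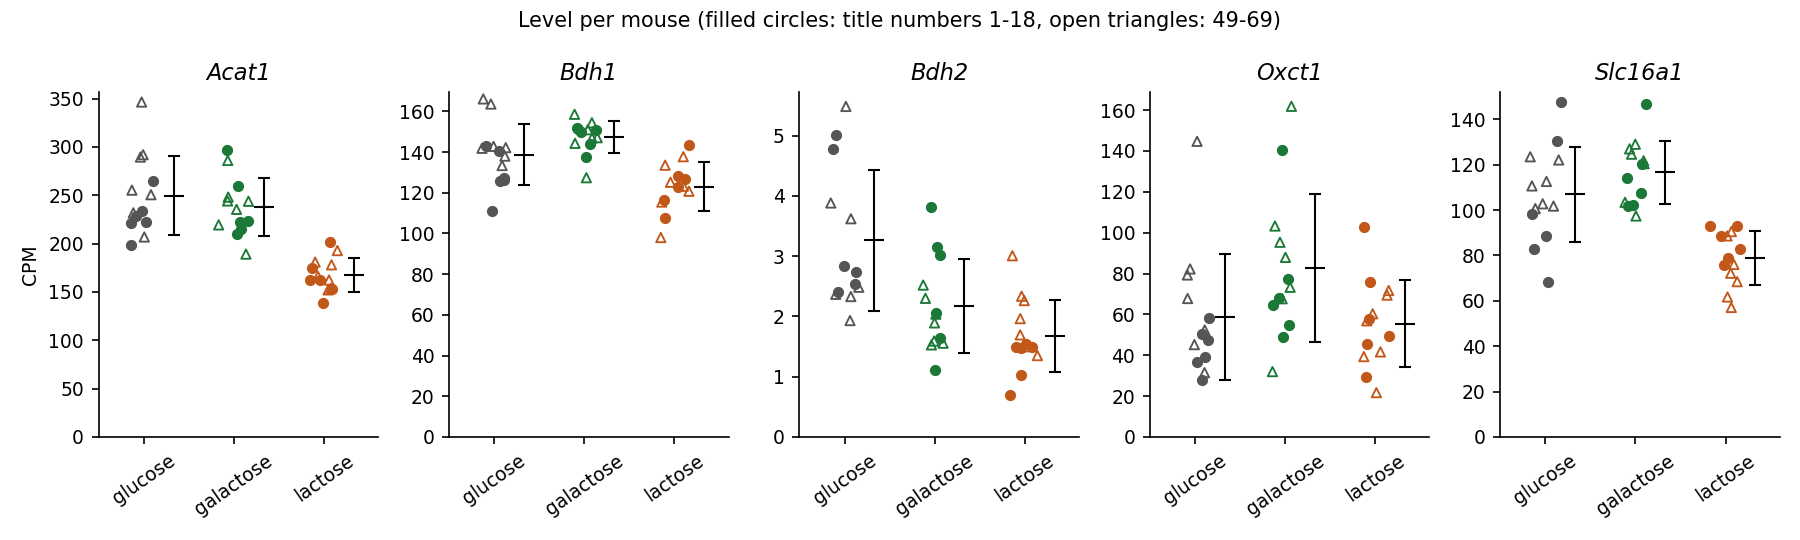
Level of each member in CPM (linear axis from 0) in each of the 39 mice, by diet, with mean and SD; filled circles are title numbers 1 to 18 and open triangles 49 to 69. Acat1 averaged 168 CPM under lactose against 250 under glucose, all 13 lactose points of Slc16a1 lie below the galactose points, and Oxct1 spreads from 21.7 to 162 CPM.

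Libraries held 19685385 to 21350610 assigned counts, and no library was a copy of another. The 10 enterocyte markers were present throughout and summed to 51881 to 89970 CPM per library, while the ileal markers Fabp6 and Slc10a2 summed to 0.196 to 1.40 CPM. Smooth muscle markers summed to 67.6 to 258 CPM under glucose, 103 to 787 under galactose and 60.8 to 206 under lactose, and all 7 were lower with lactose than with galactose. Stem cell markers summed to 39.5 to 365, 42.3 to 355 and 45.7 to 137 CPM in the same order of diets. In such mixed tissue, fewer cells of a type and less RNA per cell cannot be told apart. Galactose 4 carried 21990 CPM of exocrine pancreas markers, and leaving it out changed no call of a member.

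Lactose was first set against glucose, which compares milk sugar with free glucose at the same energy. With lactose, the thiolase Acat1, the dehydrogenases Bdh1 and Bdh2 and the carrier Slc16a1 fell, while Oxct1 did not pass. Thus 4 of 5 members fell and none rose, where 15.6% of all tested genes were called, 8.73% higher and 6.84% lower.

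Acat1 ranged from 199 to 346 CPM under glucose (median 234) and from 139 to 202 under lactose (median 163). Of the 13 lactose mice, 12 lay below the lowest glucose mouse, and the ranges met only at lactose 4. The mean fell from 250 ± 40.8 to 168 ± 17.5 CPM (SD, n = 13 each), a ratio of 1.49. On the log2 scale Acat1 fell by 0.57 (SE 0.07), with adjusted p = 3.09e-06 in edgeR.

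Bdh2 ranged from 1.93 to 5.49 CPM under glucose (median 2.74) and from 0.689 to 3.01 under lactose (median 1.499). All 13 lactose mice lay below the glucose mean, and 9 lay below every glucose mouse. The means were 3.26 ± 1.17 and 1.68 ± 0.598 CPM (SD, n = 13 each), a log2 change of -0.96 (SE 0.19, edgeR adjusted p = 0.000790). Bdh2 had the largest fold of the members, 1.94 between the means, on the fewest counts. Bdh1 showed a far smaller shift, from 111 to 166 CPM under glucose (median 141) against 98.0 to 143 under lactose (median 123). These ranges overlapped widely, with 2 lactose mice below the lowest glucose mouse. The means were 139 ± 15.0 and 123 ± 12.1 CPM (SD, n = 13 each), a log2 change of -0.17 (SE 0.05, edgeR adjusted p = 0.0217). The call of Bdh1 was lost in 6 of 15 alternative fits, among them those with a tissue, crypt or enterocyte marker score as covariate (adjusted p = 0.0864, 0.0523 and 0.0777).

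Slc16a1 ranged from 68.1 to 148 CPM under glucose (median 103) and from 57.1 to 93.2 under lactose (median 78.9). All 13 lactose mice lay below the glucose mean, and 2 lay below the lowest glucose mouse. The means were 107 ± 21.1 and 79.0 ± 11.9 CPM (SD, n = 13 each), and the log2 change was -0.44 (SE 0.09, edgeR adjusted p = 0.000904). Oxct1 ranged from 27.9 to 145 CPM under glucose (median 50.3) and from 21.7 to 103 under lactose (median 56.8), so the diets covered nearly the same range. Its log2 change was -0.08 (SE 0.23, edgeR adjusted p = 0.847), with a 95% interval from -0.54 to 0.38 that leaves room for changes in either direction. The mice with title numbers 1 to 18 (6 per diet) and 49 to 69 (7 per diet) were also fitted apart, and in the first run alone no member passed against glucose, where 18 of all genes did. In that run the log2 changes were -0.45 for Acat1, -1.38 for Bdh2, -0.04 for Bdh1, -0.26 for Slc16a1 and 0.49 for Oxct1, and in the second run Acat1, Bdh1 and Slc16a1 passed while Bdh2 had -0.66 (adjusted p = 0.0513).

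Lactose was then set against galactose, which compares the bound disaccharide with its 2 sugars given free. Acat1, Bdh1 and Slc16a1 fell with lactose, while Bdh2 and Oxct1 did not pass. The 3 of 5 members called, all lower, stand against 30.9% of all tested genes called, 15.9% higher and 15% lower.

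Slc16a1 ranged from 97.4 to 147 CPM under galactose (median 120.5), above the highest lactose mouse at 93.2. In this comparison it was the only member whose ranges did not overlap. The share of all tested genes with separate ranges was not counted, so the separation cannot be called unusual. Its mean fell from 117 ± 14.0 to 79.0 ± 11.9 CPM (SD, n = 13 each), a ratio of 1.48, and its log2 change was -0.56 (SE 0.09, edgeR adjusted p = 8.35e-06). Acat1 ranged from 189 to 297 CPM under galactose (median 235), and 11 of 13 lactose mice lay below that whole range. Its mean under galactose was 238 ± 30.2 CPM (SD, n = 13) and its log2 change -0.50 (SE 0.07, edgeR adjusted p = 1.92e-06), a call that held in all 15 alternative fits. Bdh1 was narrow under galactose, from 127 to 159 CPM (median 150), and 9 of 13 lactose mice lay below its lowest mouse. Its mean there was 147 ± 7.91 CPM (SD, n = 13), and its log2 change with lactose was -0.26 (SE 0.05, edgeR adjusted p = 0.000240).

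Oxct1 was the most variable member. Under galactose it ranged from 32.0 to 162 CPM (median 73.3), with galactose 7 highest and galactose 6 at 141 CPM, and 12 of 13 lactose mice lay below the galactose mean of 82.7 ± 36.1 CPM (SD, n = 13). The ranges overlapped over most of their length. Its log2 change with lactose was -0.58 (SE 0.23, 95% interval -1.04 to -0.12), and its edgeR adjusted p of 0.0577 missed the threshold of 0.05. In 4 of 15 alternative fits it passed, with adjusted p between 0.0176 and 0.537 over all of them. Bdh2 ranged from 1.12 to 3.82 CPM under galactose (median 2.04), again overlapping with lactose, and its log2 change was -0.37 (SE 0.20, 95% interval -0.76 to 0.01, edgeR adjusted p = 0.148). Between the runs Bdh2 differed in sign, at -0.94 in title numbers 1 to 18 and 0.06 in 49 to 69. The edgeR test of diet by run called no gene in any comparison, with 634 to 902 genes at unadjusted p under 0.05 per comparison. Of 15 member tests 4 had such a p, the smallest 0.0104 (adjusted 0.602) for Bdh2 in this comparison. The other 3 were in lactose against glucose, where 894 of 14658 genes had such a p. They were Bdh1 (0.0415), Oxct1 (0.0422) and Bdh2 (0.0499), with adjusted p from 0.789 to 0.819 in the same edgeR test.

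Galactose against glucose, which replaces part of the glucose by galactose, gave no member past the threshold in edgeR, 0 of 5, where 4.07% of all tested genes were called, 1.21% higher and 2.87% lower. At unadjusted p under 0.05 there were 2 members, Bdh2 and Oxct1, beside 3018 of all 14658 tested genes. DESeq2 called 1 member and 836 genes, and limma voom with quality weights 2 members and 1247 genes. Bdh2 averaged 2.17 ± 0.774 CPM under galactose against 3.26 ± 1.17 under glucose (SD, n = 13 each), with 12 of 13 galactose mice below the glucose mean, and its log2 change was -0.59 (SE 0.19, edgeR adjusted p = 0.0707). DESeq2 gave Bdh2 -0.58 with adjusted p = 0.0408, and over 15 alternative fits its adjusted p lay between 0.00990 and 0.645. Oxct1 averaged 82.7 CPM under galactose against 58.7 ± 30.9 CPM under glucose (SD, n = 13), where glucose 13 at 145 CPM stood highest. The Oxct1 log2 change was 0.50 (SE 0.23, 95% interval 0.04 to 0.95, edgeR adjusted p = 0.219). For Bdh1, Slc16a1 and Acat1 the log2 changes were 0.09, 0.13 and -0.07, with 95% intervals from -0.02 to 0.19, -0.05 to 0.30 and -0.21 to 0.08. Galactose and lactose were compared with the same glucose mice, so these comparisons are not independent.

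**Figure D2:**
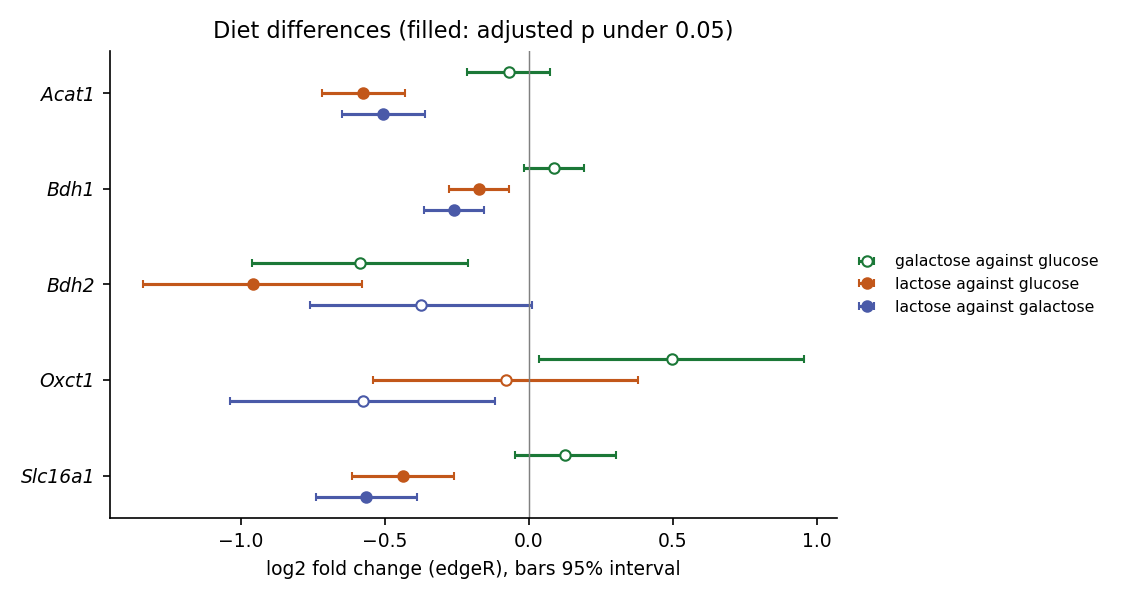
Log2 fold change of each member from edgeR in the 3 diet comparisons, with bars for the 95% interval; filled points have an adjusted p under 0.05. The lactose points of Acat1, Bdh1 and Slc16a1 lie left of 0 in both comparisons, and the galactose against glucose points are all open.

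The neighbouring pathways were described by the same fit, as counts and medians with no set test. Of all tested genes, 4.07% were called with galactose against glucose, 15.6% with lactose against glucose and 30.9% with lactose against galactose. A count near these shares says little about its list. Mitochondrial fatty acid oxidation supplies the acetyl-CoA from which ketone bodies are made. Of its 18 genes, 14 fell with galactose against glucose and none rose (median log2 change -0.37), 1 fell with lactose against glucose (median -0.02), and 14 rose with lactose against galactose (median 0.36). The enoyl-CoA isomerase Eci1 fell with galactose by 0.66 on the log2 scale (edgeR adjusted p = 2.56e-05), and the medium-chain dehydrogenase Acadm rose with lactose against galactose by 0.39 (9.46e-08). Decr1, a dienoyl-CoA reductase, was the gene that fell with lactose against glucose (-0.25, adjusted p = 0.0173). The members had medians of 0.09, -0.44 and -0.50 in the same order of comparisons, and over all tested genes the medians were -0.003, -0.03 and -0.02. Lactose against galactose therefore gave opposite signs for the 2 groups: 14 of 18 oxidation genes rose, and 3 of 5 members fell. With library totals 11 oxidation genes rose and 1 fell there, and 6 fell with lactose against glucose (median -0.12). With the tissue score as covariate 5 oxidation genes rose with lactose against galactose and none fell.

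PPAR alpha is a lipid-activated nuclear receptor that controls many genes of fat oxidation. Of 14 genes for it, its coactivator and its targets, 8 fell and 1 rose with galactose against glucose (median -0.61). Cyp4a10, a fatty acid hydroxylase, fell by 1.84 on the log2 scale (edgeR adjusted p = 0.000370), and the coactivator Ppargc1a rose by 0.34 (0.0457). With lactose against glucose 2 rose, among them the fatty acid transporter Cd36 (0.91), and with lactose against galactose 10 rose (median 0.74), among them Cyp4a10 (2.46). With the tissue score as covariate 3 rose in the latter comparison and 0 in the former.

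Acat1 also acts in isoleucine breakdown, so the branched-chain amino acid genes were read beside it. Of 15 tested, 2 rose with lactose against glucose, Mccc1 (0.32) and Pccb (0.35), both carboxylase subunits, and 1 fell, the hydrolase Hibch (-0.26), but with library totals alone 0 rose and 3 fell. Over all tested genes 15.6% were called in this comparison under the main scaling. The median of the list was 0.04 under the main scaling and -0.06 with library totals, against -0.57 and -0.68 for Acat1. With lactose against galactose 4 rose and 1 fell (median 0.07), but with library totals 2 rose and 3 fell (median -0.08). Over all tested genes 30.9% were called there under the main scaling. With galactose against glucose 1 fell, Hsd17b10 (-0.24, edgeR adjusted p = 0.0287), the dehydrogenase that acts just before Acat1 on the isoleucine route, a call lost with library totals and with the tissue score as covariate.

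Oxct1 uses succinyl-CoA, and the ketone carbon ends in the citrate cycle. Of 17 citrate cycle genes, 3 rose with lactose against glucose, Cs (citrate synthase, 0.23), Sucla2 (0.17) and Suclg2 (0.23), and 1 fell, Idh3b (-0.18), but with library totals alone 1 rose and 3 fell. Over all tested genes 15.6% were called in this comparison under the main scaling. Sucla2 and Suclg2 encode subunits of succinyl-CoA synthetase. Suclg2 fell with galactose against glucose (-0.39, edgeR adjusted p = 0.00230). With lactose against galactose 8 rose and none fell under the main scaling, but with library totals 1 rose and 6 fell, so the direction of this group depended on scaling.

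**Figure D3:**
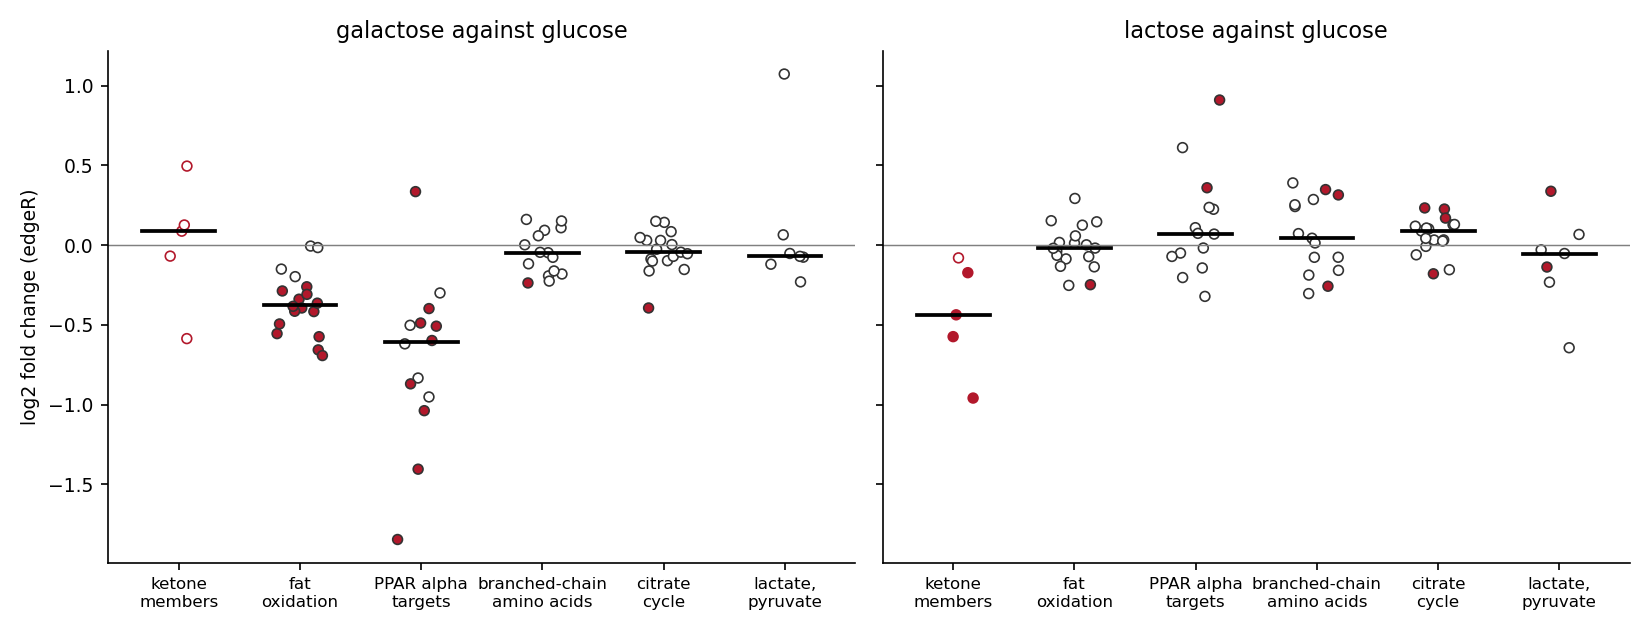
Log2 fold change (edgeR) of every tested gene of the members and of 5 neighbouring pathway lists. There is 1 panel for galactose against glucose and 1 for lactose against glucose. With galactose the fat oxidation points lie below 0 (median -0.37) and the member points on both sides of it (median 0.09). With lactose the member points lie below 0.

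Other carriers of the monocarboxylate family were read beside Slc16a1. Of 10 tested genes none was called with galactose or lactose against glucose in edgeR, with 3 and 4 at unadjusted p under 0.05, and DESeq2 called 0 and 1. With library totals edgeR called 0 and 2, both lower. The chaperone Bsg, which brings MCT1 to the plasma membrane, averaged 908 ± 79.4 CPM under glucose, 870 ± 92.1 under galactose and 933 ± 78.7 under lactose (SD, n = 13 each). Its log2 change with lactose was 0.04 against glucose (edgeR adjusted p = 0.672) and 0.10 against galactose (0.174), while Slc16a1 fell in both. Against galactose, Slc16a5 (0.45, adjusted p = 0.00156) and the sodium-coupled Slc5a8 (1.98, 0.0204) rose, and Slc16a6 (-0.40, 0.0122) and Slc16a7 (-1.07, 0.00343) fell. Slc5a8 was low and uneven, with 11.1 ± 13.6 CPM under lactose and 2.83 ± 2.55 under galactose (SD, n = 13 each). Slc16a7 was lower still, with 0.398 ± 0.219 CPM under lactose and 0.852 ± 0.464 under galactose (SD, n = 13 each).

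Lactate and pyruvate are the other main cargo of MCT1. Of 7 genes that handle them, Mpc1, a subunit of the mitochondrial pyruvate carrier, rose with lactose from 76.5 ± 7.87 to 96.8 ± 10.4 CPM (SD, n = 13 each; edgeR adjusted p = 6.67e-05), and Pdha1, of pyruvate dehydrogenase, fell (-0.14, 0.0463). None was called with galactose against glucose in edgeR, with 2 at unadjusted p under 0.05, and DESeq2 called 0. Of 5 tested genes among 9 other ketone enzymes and receptors, 1 rose and 1 fell with lactose against galactose: the cytosolic thiolase Acat3 (1.06, adjusted p = 0.00325) and the lactate receptor Hcar1 (-0.34, 0.0490). Acat3 is a near-identical copy of Acat2, and how the counting treated reads that match both is not given, so its value is uncertain.

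Within diets, some members varied together from mouse to mouse. Of 10 pairs, 3 passed a permutation test on log2 CPM centred on the diet mean, and each included Bdh1. The share of all gene pairs with such correlations was not counted, so the 3 pairs cannot be called particular to these genes. Bdh1 followed some genes outside the members more closely, such as Agmat (r = 0.75). Bdh1 and Oxct1 had Pearson r = 0.56 and Spearman rho = 0.58 over 39 mice (permutation p = 0.000300, adjusted 0.00205 for r and 0.00190 for rho). Within title numbers 1 to 18 and 49 to 69 r was 0.72 and 0.37, and without the 2 mice farthest from the Bdh1 median it was 0.52. Bdh1 and Acat1 had r = 0.55 and rho = 0.41 (permutation p = 0.000410, adjusted 0.00205 and 0.0407), with 0.34 and 0.57 within the runs and 0.58 without the 2 farthest mice. Bdh1 and Slc16a1 had r = 0.48 and rho = 0.48 (permutation p = 0.00526, adjusted 0.0175 and 0.0184), with 0.45 and 0.49 within the runs and 0.36 without the 2 farthest mice. The other 7 pairs had adjusted p from 0.206 to 0.781 for r. Acat1 and Slc16a1, both lower with lactose, had r = -0.09 within diets.

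**Figure D4:**
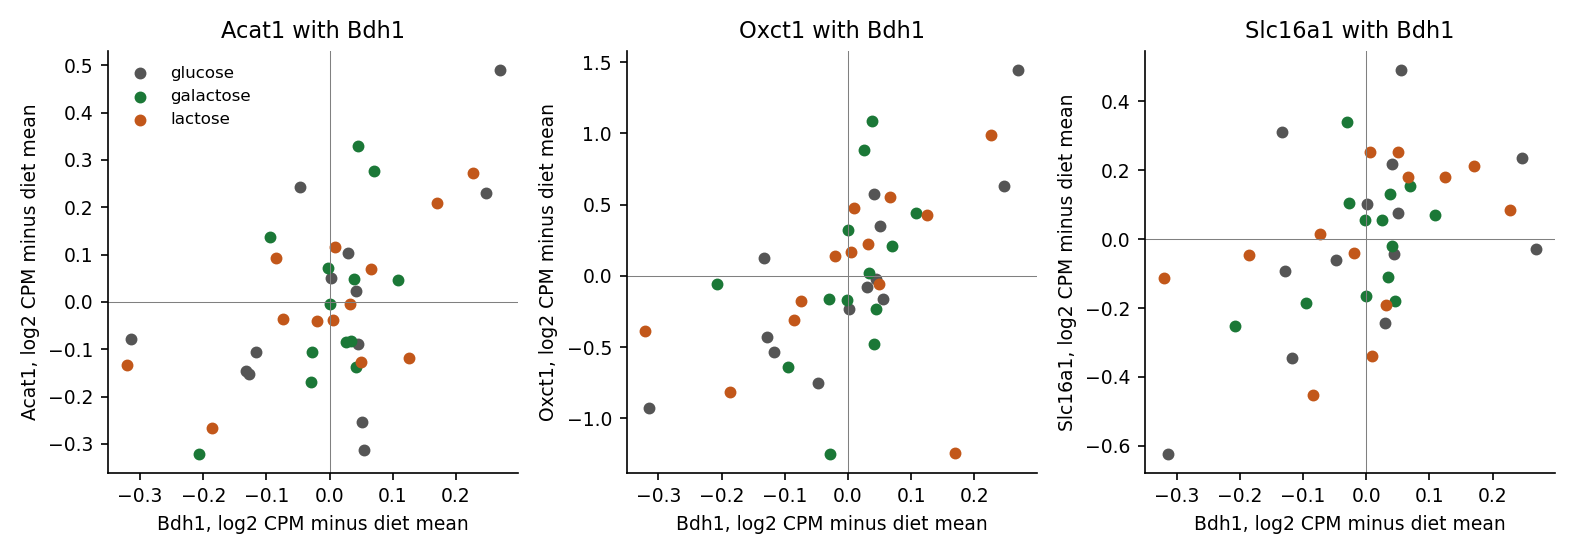
Log2 CPM of Acat1, Oxct1 and Slc16a1 against Bdh1 in the 39 mice, each minus its diet mean and coloured by diet. The clouds rise to the right, with r = 0.55, 0.56 and 0.48, and scatter widely.

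The genes whose level followed each member most closely within diets were read off as a description over the same 39 mice, which share library depth and tissue mix. Oxct1 had the closest partners, 4930402H24Rik (r = 0.89), the sulphate donor synthase Papss2 (0.89) and 4931428L18Rik (0.87). Slc16a1 was followed by Dnajc11 and Mrps5 (0.81 each) and Cox10 (0.79), which encode mitochondrial proteins. Bdh1 was nearest to Agmat (0.75), the fumarase gene Fh1 (0.74) and Sdsl (0.73), Acat1 to Fars2 (0.72), Chpt1 (0.71) and Idh3g (0.71), and Bdh2 to Surf2 (0.71), 2410006H16Rik (0.70) and Mpg (0.68).

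Cell type markers moved with some members. Of 85 correlations of the 5 members with 17 marker scores, chosen after seeing the data and adjusted together, 6 passed. Slc16a1 was lower in mice with higher enterocyte scores (r = -0.56, rho = -0.51, permutation p = 0.000330, adjusted 0.0200) and higher with stem cell scores (r = 0.52, rho = 0.41, permutation p = 0.000860, adjusted 0.0244) and cycling crypt scores (r = 0.48, rho = 0.39, adjusted 0.0409). For the enterocyte score r was -0.73 and -0.33 within the runs and -0.41 without the 2 farthest mice, and for the stem cell score 0.68, 0.13 and 0.36. Stem cell markers were lower with lactose for 2 of 6 genes against glucose and 3 of 6 against galactose. Of all tested genes, 6.84% and 15% were lower in these comparisons. With the crypt score as a covariate Slc16a1 fell with lactose by 0.36 against glucose and 0.50 against galactose on the log2 scale (edgeR adjusted p = 0.00445 and 2.39e-05). The enterocyte score as a covariate gave falls of 0.33 and 0.51 (edgeR adjusted p = 0.00487 and 3.04e-06). With the tissue score, which includes smooth muscle and fibroblast markers, Slc16a1 fell by 0.33 and 0.40 (edgeR adjusted p = 0.0424 and 0.0238). The scores come from the same libraries, and the part of cell mix in the Slc16a1 values was not tested.

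The other 3 correlations past the threshold were Oxct1 with B and plasma cell markers (r = 0.54, adjusted permutation p = 0.0200, 0.38 and 0.70 within the runs), Bdh2 with cycling crypt markers (0.48, 0.0409, 0.70 and 0.01) and Acat1 with exocrine pancreas markers (0.45, 0.0325, 0.62 and 0.30). The B and plasma cell markers had median sums of 198 CPM under glucose, 143 under galactose and 309 under lactose. Their part in the Oxct1 values was not tested. With the crypt score as a covariate the log2 change of Bdh2 with lactose against glucose was -0.85 (edgeR adjusted p = 0.00207). For Acat1 the log2 change with lactose against glucose was -0.59 with the enterocyte score in the fit (edgeR adjusted p = 2.23e-06). Within diets Acat1 had r = 0.17 with that score (adjusted permutation p = 0.526). No fit held the exocrine pancreas score, and its part in the Acat1 values was not tested.

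**Figure D5:**
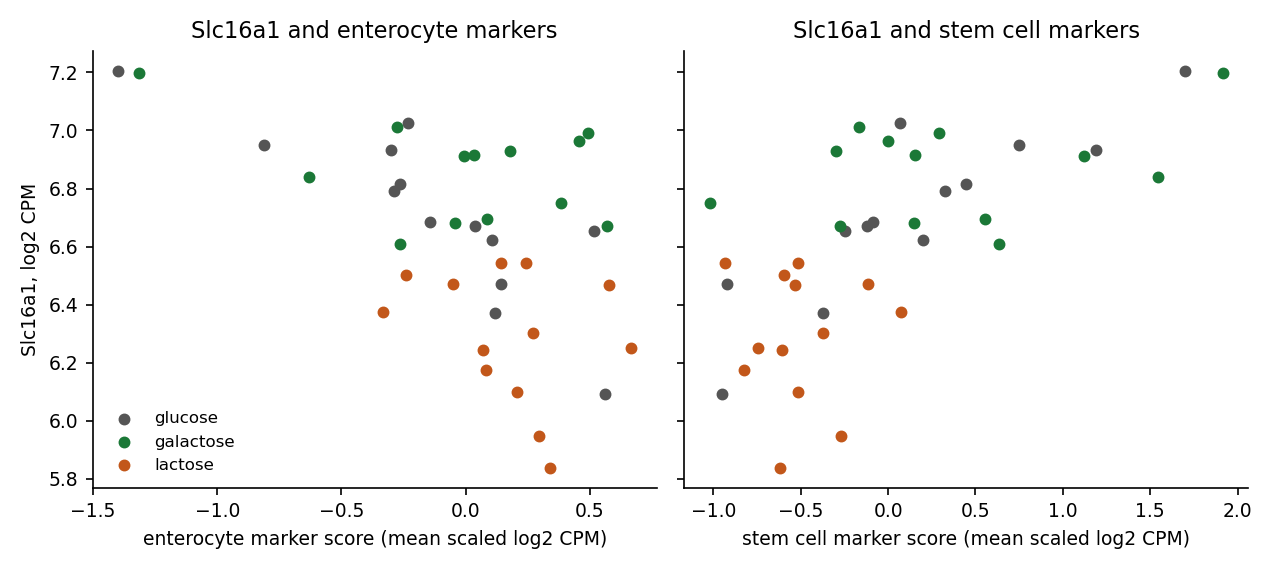
Slc16a1 in log2 CPM against the enterocyte score and the stem cell score (mean scaled log2 CPM of the markers) in the 39 mice, coloured by diet. Within diets r is -0.56 for the enterocyte score and 0.52 for the stem cell score, and the 13 lactose points lie below every galactose point in height.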

How the data were processed

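The authors deposited raw counts per gene, 1 file per mouse, made with FastQC, STAR and HTSeq on GRCm39, per the submitters' processing notes. Versions, strand setting and annotation release are not given in the sources used here. Bdh1 and Oxct1 overlap antisense genes by 533 and 467 exon bases, and those genes held 309 and 162 counts in all 39 libraries together. Each file held 56980 genes and 5 summary lines, left out of library sizes, and 10.1% to 15.7% of reads were unassigned. Symbols were matched for 52073 identifiers, and exon lengths came from GENCODE M21 on GRCm38. The members and lists were chosen with earlier results of these data known. Some genes of these pathways are not reported here.

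Genes were filtered with filterByExpr and tested in edgeR 4.0.16 (R 4.3.3) with TMM factors, 1 model of 3 diet means and two-sided quasi-likelihood F tests. P-values were adjusted by Benjamini and Hochberg over 14658 genes, with a threshold of 0.05. The SE is the log2 change over the square root of F. Log2 CPM used a prior count of 2. Permutation tests used 100000 resamples within diet. Ratios are between mean CPM. The 3 called genes of smallest p per list, direction and comparison could be named, as could the 3 genes most like each member with mean log2 CPM of at least 1. Bsg was not among them and was named after its values were seen. The tissue score is the mean of the stem cell, fibroblast and smooth muscle scores. Alternatives were DESeq2 1.42.0, limma 3.58.1 voom, other scalings and filters, covariates, each run alone and fits of 2 diets. The crypt and enterocyte covariates, 2 alternatives in all, were chosen after seeing the data. The edgeR fit was tested on simulated data. Depth was alike in all libraries, with 19685385 to 21350610 counts, and Bdh2 had the fewest counts of the members, 14 to 116 per library.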

Additional observations from a re-analysis of the deposited data

How the results depend on the processing

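Of 225 alternative values for the 15 member results, 198 kept their direction and side of the threshold. With lactose against galactose Acat1 passed in every alternative. DESeq2, voom and the crypt covariate called 1, 2 and 1 members with galactose against glucose, with Bdh2 at -0.58, -0.66 and -0.61, and voom put Oxct1 at 0.66. Against glucose, Bdh1 missed the threshold with lactose without a filter (-0.17), in the fit of 2 diets (-0.18) and with the tissue (-0.18), crypt (-0.15) and enterocyte (-0.14) covariates. Oxct1 turned positive there with voom (0.081) and the tissue covariate (0.03). With lactose against galactose, library totals called 5 members, with Bdh2 at -0.53 and Oxct1 at -0.71. Oxct1 also passed with voom (-0.57) and in the fit of 2 diets (-0.59). With the triplets of neighbouring title numbers as a replicate block Oxct1 passed at -0.58 (adjusted p = 0.0312), and the block changed no other member call. The labels do not pair these mice. The block moved the genes called from 597 to 908 with galactose, from 2281 to 3022 with lactose against glucose and from 4532 to 5103 against galactose.

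Title numbers 1 to 18 alone called 0, 0 and 1 members in the order galactose against glucose, lactose against glucose and lactose against galactose. There, with lactose against glucose, Bdh1 had -0.045, Bdh2 -1.38, Acat1 -0.45, Slc16a1 -0.26 and Oxct1 0.49, and against galactose Bdh1 had -0.25 and Slc16a1 -0.44. Acat1 had 0.071 with galactose. Numbers 49 to 69 gave Bdh2 -0.66 with lactose against glucose and 0.064 against galactose, and Bdh1 -0.00033 with galactose. These fits hold fewer mice. Pairs that changed sign were Bdh2 in 1 to 18 with Acat1 (0.052) and Oxct1 (0.27), and in 49 to 69 Bdh1 with Bdh2 (-0.10) and Slc16a1 with Bdh2 (-0.11), Acat1 (0.11) and Oxct1 (-0.057).

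Counts of genes called varied more. For galactose they were 836 with DESeq2, 1247 with voom, 937 with the crypt covariate, 369 with the tissue covariate, and 72 and 179 in the runs alone. For lactose against glucose they were 3527 with library totals, 564 with the tissue covariate and 18 in the first run. For lactose against galactose they were 966 with the tissue covariate, and 950 and 2932 in the runs. Library totals moved the median of all genes to 0.03, -0.13 and -0.16 and that of the members to 0.12, -0.55 and -0.64. Higher against lower calls were then 315 and 286, 623 and 2904, and 1064 and 4957, beside 177 and 420, 1279 and 1002, and 2328 and 2204 under the main scaling. Of 42 counts of pathway genes, 27 stayed within 1.5 times with library totals. The causes of these differences were not tested. Bdh2 rested on 14 to 116 counts per library.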
